A study of Mus musculus with 21 samples.

Results

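The cadherins, protocadherins and contactins described here are the 40 genes, of 16443 in the deposited expression table, whose symbol is Cdh with a number, starts with Pcdh, or is Cntn with a digit, without Cdh1. They comprise 16 cadherins, 6 non-clustered protocadherins, 13 clustered protocadherins and 5 contactins. RNA was measured in 21 libraries of 2TS22C mouse embryonic stem cells, in which doxycycline (DOX) silences Sox2, in 8 groups of 2 to 4 libraries. Per the labels, miniSOX, FNV and SOX2 cells all received DOX and carried a lentivirus for miniSOX, for SOX17FNV (an engineered SOX17) or for SOX2, while the reference cells, NTC, were 2TS22C cells that were not transduced, with a wild-type genotype and no DOX listed. Each line was grown in 2i (serum and Lif with 2i, which stands for inhibitors of MEK and of GSK3) and in SL (serum and Lif alone). In 2i there were 2 miniSOX, 4 FNV, 4 SOX2 and 3 NTC libraries, and in SL there were 2 libraries of each line. A comparison with NTC thus joins the introduced gene, the silencing, the virus and DOX, which cannot be told apart.

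Cadherins are calcium-dependent adhesion proteins that bind like molecules on neighbouring cells, and the classical members are tied through catenins to the actin cytoskeleton. Clustered protocadherins are encoded in tandem arrays in which each variable exon has its own promoter and, in the alpha and gamma arrays, is spliced to shared constant exons; in neurons their combinations give cells a surface identity. Contactins are immunoglobulin-type proteins held in the membrane by a lipid anchor and are known mainly from axons and synapses. Mouse embryonic stem cells adhere chiefly through E-cadherin (Cdh1), which lies outside the set described here, and the switch from E-cadherin to N-cadherin (Cdh2) is a hallmark of exit from pluripotency.

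The deposited values were whole numbers that the authors had normalised between libraries, so read depth is unknown. Sox2 was at 47 to 60 in miniSOX, 19 to 49 in FNV, 921 to 1509 in SOX2 and 533 to 2697 in NTC libraries. All 8 embryonic stem cell markers examined were above 0 in at least some libraries of every group, with summed values of 44926 to 88813. The NTC p31 library in 2i stood apart from the other NTC libraries in 2i: its stem cell marker sum was 44926, against 79209 and 80214, and its neural marker sum (7 of 9 listed genes measured) was 2300, against 543 and 612. Its trophectoderm marker sum was 2750, against 1229 and 1255, with Cdx2 at 519, against 15 and 12. The libraries fell into a first wave of 12 (replicates 1 and 2 of FNV, SOX2 and NTC) and a second wave of 9 (the p21 and p31 libraries, all in 2i, and all miniSOX libraries). The only NTC library of the second wave was p31, so every second-wave comparison with NTC rests on that library. Wave was a term in the limma model. In SL, wave and the miniSOX line coincide, and the adjustment there rests on the 2i libraries. Whether replicates 1 and 2 are separate cultures is stated in no label, and the p-values therefore reflect only how far these libraries spread, which may be technical. The titles of the p21 and p31 libraries count them as biological replicates from 2 upward, a numbering under which replicates 1 and 2 of the first wave together would be 1 biological replicate. The SL groups of FNV, SOX2 and NTC would then hold 1 biological replicate each, as would every group in the fits within the first wave. The fit was therefore repeated with those first-wave replicates averaged, a lone sample being assumed to vary like the other groups. The miniSOX replicates 1 and 2, numbered in the same way, stayed separate samples in it. Calls between media in miniSOX cells were therefore not put to that check on the miniSOX side. Where averaging ended a call of a member described below, its adjusted p is given as the averaged fit. For the related gene lists, only the counts of genes that rose or fell are given for it, where they moved by more than 1.5 times.

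Most members were low. The median over the 40 members of the mean value across libraries was 23.7, against 226 over all genes, and 37 members lay below that of all genes. Per kb of longest annotated transcript, and leaving out genes with abrupt zeros described next, the highest mean values were those of Cdh3 (68.0), Pcdhgc4 (35.0), Pcdhgc3 (24.8), Cdh2 (19.2), Pcdh19 (17.3), Pcdh1 (16.2), Cdh18 (15.1), Cdh24 (12.6) and Cntn1 (12). A group of 12 members (30.0%, against 4.2% of all genes) were listed at 0 in some libraries and at no value from 1 to 19 in any library. These were Cdh7, Cdh8, Cdh9, Cdh10, Cdh12, Cdh19, Pcdh17, Pcdhb14, Pcdhb16, Pcdhb19, Cntn3 and Cntn4. They are called step genes below. Whether their zeros are absent transcripts or come from the authors' estimation and normalisation was not tested, so they are described by their library values; their calls are nevertheless counted in each comparison, and how many there are is stated.

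**Figure D1:**
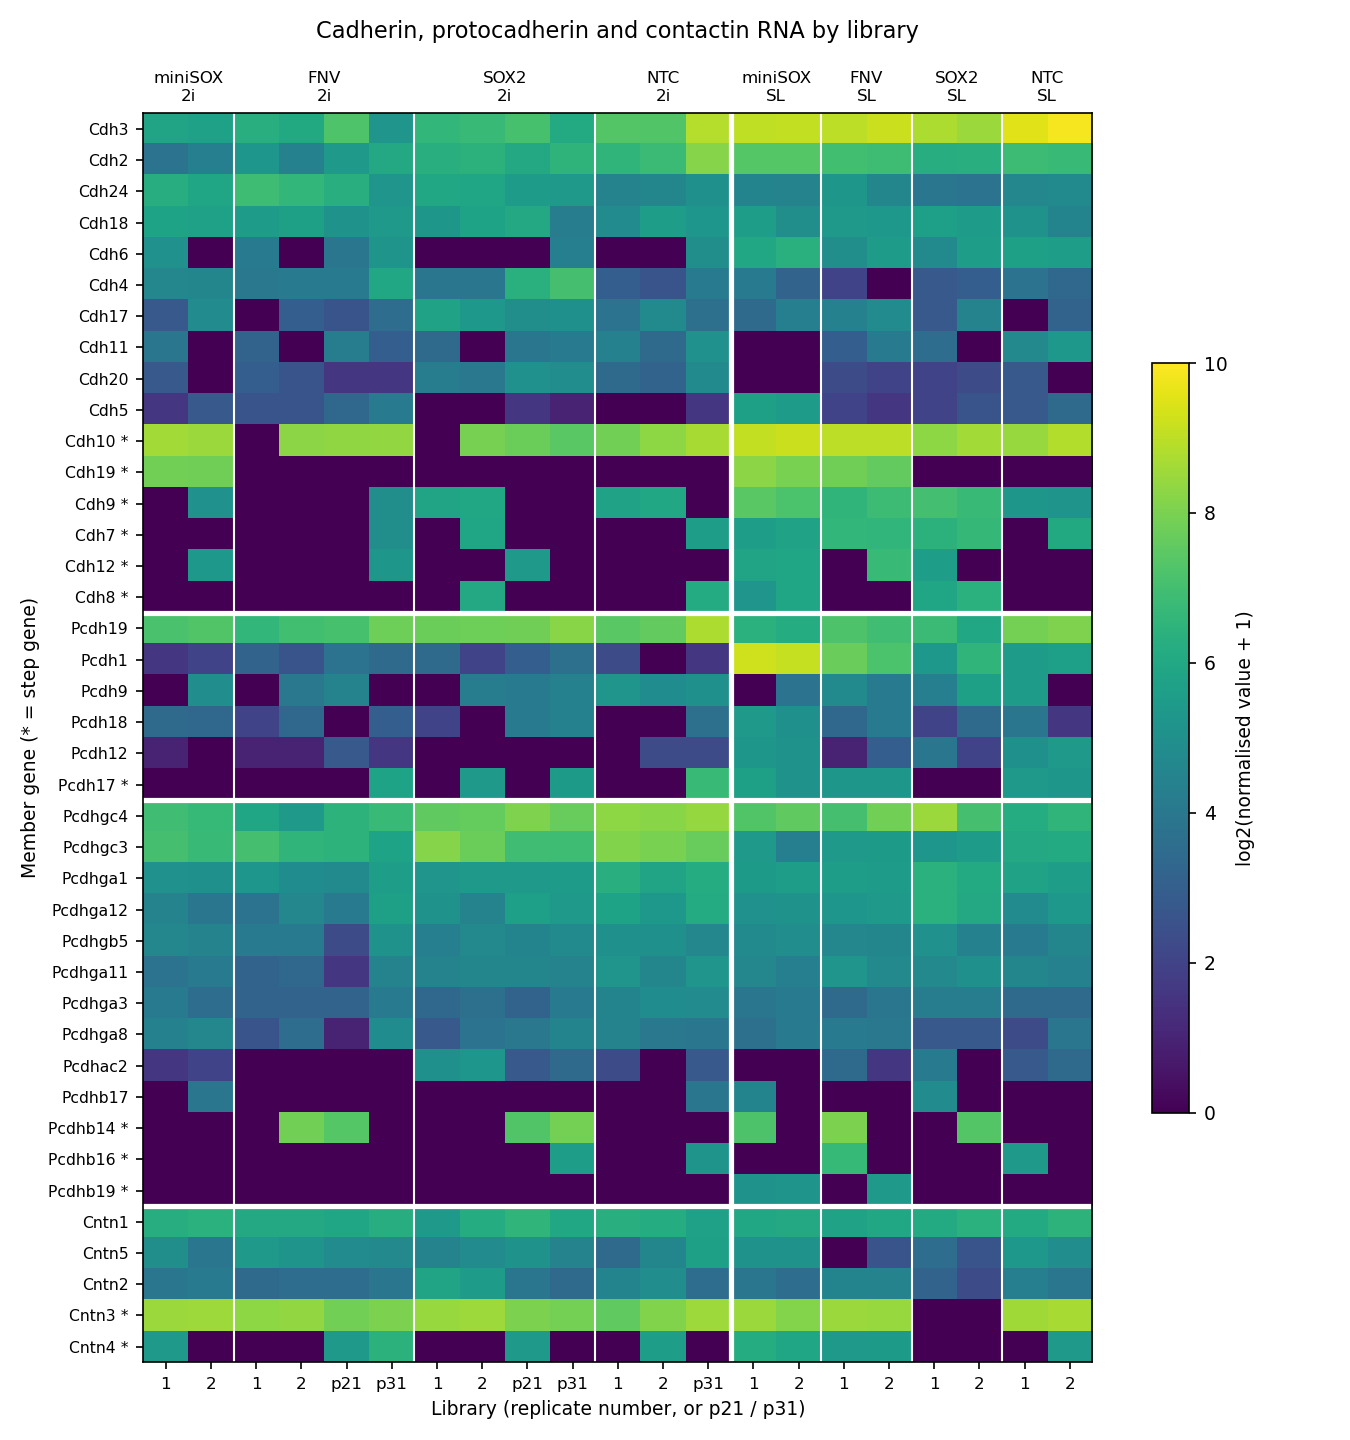
Value of each of the 40 members (rows, grouped as cadherins, non-clustered protocadherins, clustered protocadherins and contactins) in each of the 21 libraries (columns), as log2(normalised value + 1). Step genes, marked with an asterisk, alternate between 0 and higher values, whereas Cdh3 and Pcdh1 are higher in every SL library than in the 2i libraries of the same line.

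Among the classical cadherins, P-cadherin (Cdh3, ENSMUSG00000061048, chromosome 8, 106510891 to 106557297, plus strand, GRCm38), first known from placenta and basal epithelium, was lower in 2i than in SL in every line. Its values in 2i and SL were 56 and 52 against 529 and 535 in miniSOX cells, and 76, 67, 151 (p21) and 36 (p31) against 509 and 586 in FNV cells. They were 98, 106, 137 (p21) and 69 (p31) in 2i against 437 and 359 in SL in SOX2 cells, and 158, 154 and 477 (p31) in 2i against 744 and 921 in SL in NTC cells. The media did not overlap within any line, and NTC p31 was by far the highest 2i library. The log2 changes, on the log2(value + 1) scale used throughout, were -3.28 ± 0.53 in miniSOX (limma adjusted p = 0.000258), -3.09 ± 0.49 in FNV (adjusted p = 0.000143), -2.18 ± 0.49 in SOX2 (adjusted p = 0.00215) and -2.0 ± 0.50 in NTC (adjusted p = 0.00885; ± is SE). The NTC call was lost without replicate 2 in SL (-1.84, adjusted p = 0.0671), and without p31 the NTC change was -2.40 (adjusted p = 0.00136). Within the first wave the changes were -2.92 in FNV, -1.95 in SOX2 and -2.40 in NTC cells, all with an adjusted p of at most 1.04e-05. The averaged fit ended the calls in SOX2 (adjusted p = 0.0877) and NTC cells (adjusted p = 0.278). In these bulk samples, fewer cells of a type that makes Cdh3 and less Cdh3 RNA per cell cannot be told apart, and the same holds for every gene below.

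Between lines in 2i, Cdh3 was lower in FNV and SOX2 than in NTC cells (log2 change -1.69 ± 0.41, adjusted p = 0.00413, and -1.24 ± 0.41, adjusted p = 0.0337). Both calls were lost without NTC p31 (-1.09, adjusted p = 0.0578, and -0.64, adjusted p = 0.299). The SOX2 call was also lost without SOX2 replicate 1 (-1.32, adjusted p = 0.0567) or SOX2 p31 (-1.0, adjusted p = 0.0789). Within waves, the change of FNV against NTC was -1.12 (adjusted p = 0.000315) in the first and -2.67 (adjusted p = 0.074) in the second, and that of SOX2 against NTC was -0.61 (adjusted p = 0.0102) and -2.28 (adjusted p = 0.147). The SOX2 call was lost in the averaged fit (adjusted p = 0.148).

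N-cadherin (Cdh2, ENSMUSG00000024304, chromosome 18, 16588877 to 16809246, minus strand), the cadherin of neural and mesenchymal cells, was lower in 2i in FNV and miniSOX cells. It stood at 13 and 19 in miniSOX, at 37, 20, 41 (p21) and 65 (p31) in FNV, at 79, 85, 64 (p21) and 89 (p31) in SOX2 and at 91, 113 and 289 (p31) in NTC libraries in 2i. In SL it stood at 163 and 164 in miniSOX, 124 and 117 in FNV, 74 and 78 in SOX2 and 115 and 108 in NTC libraries. In 2i the miniSOX libraries lay below all others, the FNV libraries overlapped those of SOX2 through p31 alone, and the NTC libraries lay above all others, p31 highest. In SL, by contrast, the miniSOX libraries were the highest.

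The neural marker list summed to 786 to 791 in miniSOX, 577 to 1134 in FNV, 580 to 1341 in SOX2 and 543 to 2300 in NTC cells in 2i, with Dcx at 0 throughout miniSOX, FNV and SOX2; its part in the Cdh2 levels was not tested. Within that list in 2i, Tubb3 was at 12 to 40 in miniSOX and FNV libraries. It was at 156 to 571 in SOX2 and 199 to 1178 in NTC libraries. Map2 was at 23 to 31 in miniSOX and FNV and at 40 to 80 in SOX2 and NTC libraries. Nes was at 488 to 1003 in miniSOX and FNV and 262 to 877 in SOX2 and NTC libraries, which overlapped. Pax6, Elavl3 and Pou3f2 overlapped between FNV and SOX2 libraries. Sums of other lists separated FNV from SOX2 and NTC cells in 2i. The trophectoderm list summed to 2586 to 2652 in miniSOX, 5256 to 7366 in FNV, 825 to 1421 in SOX2 and 1229 to 2750 in NTC cells, and the extraembryonic endoderm list without Sox17 to 5050 to 5305, 7311 to 7541, 1856 to 3706 and 2769 to 3007 in the same groups, with Ttr at 0 in miniSOX cells. The highest trophectoderm genes in the FNV libraries were Krt8 (2659 to 3770) and Krt18 (1110 to 2743). The highest endoderm gene there was Dab2 (3897 to 4972). These, Krt7, Gata6 and Pdgfra lay above all SOX2 and NTC libraries, and Cdx2 did except for NTC p31 at 519. Eomes, Elf5, Gata3, Tfap2c, Hand1, Lama1, Cubn, Ttr and Afp overlapped between FNV and SOX2 libraries. The part of these lists in the Cdh2 levels and the other differences between lines in 2i was not tested. The fitted change of Cdh2 in 2i was -2.59 ± 0.36 in miniSOX against SOX2 (adjusted p = 0.000274; -2.19, adjusted p = 0.0176, within the second wave). In FNV it was -1.05 ± 0.27 against SOX2 (adjusted p = 0.0116) and -2.02 ± 0.30 against NTC (adjusted p = 8.76e-05). The FNV difference from NTC passed within the first wave (-1.86, adjusted p = 0.000414) and without NTC p31 (-1.60, adjusted p = 0.00125). Within the second wave, against NTC p31 alone, it was -2.46. The FNV difference from SOX2 was -1.55 (adjusted p = 0.00164) in the first wave and -0.54 (adjusted p = 0.413) in the second. In SOX2 against NTC it was -0.97 ± 0.30 (adjusted p = 0.0242), a call lost without NTC p31 (-0.56, adjusted p = 0.217) or SOX2 p21 (-0.77, adjusted p = 0.0581). Within waves, that change was -0.30 (adjusted p = 0.391) in the first and -1.92 in the second, against NTC p31 alone. In the averaged fit the calls against SOX2 in FNV (adjusted p = 0.153) and against NTC in SOX2 (adjusted p = 0.0725) were lost.

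The change of Cdh2 with medium differed between FNV and SOX2 cells. In 2i against SL it changed by -3.30 ± 0.39 in miniSOX (adjusted p = 1.47e-05) and by -1.99 ± 0.36 in FNV cells (adjusted p = 0.00041; -2.10 within the first wave, adjusted p = 0.000161), while the values were -0.28 ± 0.36 in SOX2 (adjusted p = 0.546) and 0.14 ± 0.36 in NTC cells (adjusted p = 0.851). The change in FNV cells less that in SOX2 cells was -1.70 ± 0.47 (adjusted p = 0.02), and -2.21 within the first wave (adjusted p = 0.00165). That call was lost on leaving out either FNV library in SL (-1.66, adjusted p = 0.0599, without replicate 1, and -1.75, adjusted p = 0.0601, without replicate 2). It was likewise lost without either SOX2 library in SL (-1.67, adjusted p = 0.0624, and -1.74, adjusted p = 0.0564), and in the averaged fit (adjusted p = 0.287).

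The type II cadherin Cdh24 (chromosome 14, 54631231 to 54641364, minus strand), which can bind catenins, ran the other way. It stood at 74 and 58 in miniSOX, 118, 98, 79 (p21) and 36 (p31) in FNV, 61, 60, 45 (p21) and 41 (p31) in SOX2 and 21, 23 and 31 (p31) in NTC libraries in 2i. The corresponding SL values were 22 and 21, 38 and 23, 14 and 13, and 24 and 26. The 2i libraries exceeded the SL libraries of the same line in miniSOX and SOX2 cells, FNV p31 fell just below an FNV library in SL, and in NTC cells the media overlapped.

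Cdh24 rose in 2i against SL by 1.56 ± 0.38 in miniSOX (adjusted p = 0.00584), 1.55 ± 0.35 in FNV (adjusted p = 0.00268) and 2.06 ± 0.35 in SOX2 cells (adjusted p = 0.000281). In NTC cells the value was 0.13 ± 0.36 (adjusted p = 0.872); whether the lines differ was tested only for FNV against SOX2, where the difference of the changes was -0.51 (adjusted p = 0.472). The miniSOX call was lost without replicate 1 in 2i (1.39, adjusted p = 0.0532), and the FNV call without replicate 2 in SL (1.20, adjusted p = 0.0506). Within the first wave the changes were 1.83 in FNV (adjusted p = 0.000278) and 2.09 in SOX2 cells (adjusted p = 0.000121). In 2i, Cdh24 was higher than in NTC cells in FNV (1.66 ± 0.30, adjusted p = 0.000451) and in SOX2 cells (1.09 ± 0.30, adjusted p = 0.013). The SOX2 call was lost without NTC replicate 1 (0.91, adjusted p = 0.064) or 2 (0.97, adjusted p = 0.0552). Without NTC p31 the values were 2.11 in FNV (adjusted p = 8.97e-05) and 1.55 in SOX2 cells (adjusted p = 0.00181). Within waves, FNV against NTC gave 2.24 (adjusted p = 0.000107) in the first and 0.77 (adjusted p = 0.313) in the second, and SOX2 against NTC gave 1.42 (adjusted p = 0.00197) and 0.46 (adjusted p = 0.613). Calls lost in the averaged fit were those of medium in FNV cells (adjusted p = 0.106) and of SOX2 against NTC (adjusted p = 0.18).

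VE-cadherin (Cdh5, chromosome 8, 104101625 to 104144511, plus strand), the cadherin of endothelial junctions, was low except in miniSOX cells in SL. Its values in 2i were 2 and 6 in miniSOX, 5, 5, 9 (p21) and 17 (p31) in FNV, 0, 0, 2 (p21) and 1 (p31) in SOX2 and 0, 0 and 2 (p31) in NTC libraries. In SL they were 50 and 45 in miniSOX, 3 and 2 in FNV, 3 and 5 in SOX2 and 6 and 10 in NTC libraries. In 2i every FNV library exceeded every SOX2 and NTC library; in SL the FNV libraries, with a SOX2 library at the same 3, were the lowest.

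In 2i, Cdh5 was higher in FNV than in SOX2 cells (2.52 ± 0.42, adjusted p = 0.000469) and than in NTC cells (2.42 ± 0.45, adjusted p = 0.000635). Within the first and second waves the contrast with SOX2 gave 2.58 (adjusted p = 0.0271) and 2.45 (adjusted p = 0.0958), and that with NTC gave 2.58 (adjusted p = 0.022) and 2.16 (adjusted p = 0.113). Against SL, Cdh5 was lower in 2i in miniSOX (-3.40 ± 0.59, adjusted p = 0.000439), SOX2 (-2.30 ± 0.54, adjusted p = 0.00297) and NTC cells (-3.04 ± 0.55, adjusted p = 0.00109), and 0.71 ± 0.54 in FNV cells (adjusted p = 0.325). Within the first wave the changes were -2.29 in SOX2 (adjusted p = 0.0309) and -3.13 in NTC cells (adjusted p = 0.0112). The miniSOX change was -2.79 (adjusted p = 0.00925) without replicate 1 and -4.01 (adjusted p = 0.000932) without replicate 2 in 2i. The change in FNV less that in SOX2 cells was 3.02 (adjusted p = 0.00868), and 3.09 within the first wave (adjusted p = 0.0517). The averaged fit ended the medium calls in SOX2 (adjusted p = 0.0852) and NTC cells (adjusted p = 0.0865) and the call of this difference (adjusted p = 0.203). The 4 measured of 6 other endothelial markers summed to 1753 to 1903 in miniSOX cells in SL, against 1600 to 4006 in the other SL groups, and to 2752 to 3780 in FNV, 3175 to 5561 in SOX2 and 2453 to 3803 in NTC cells in 2i. None of the measured ones was at 0 throughout a group. Pecam1 was the highest of them in every library, at 1211 to 5154. Tek was at 83 to 1007, Kdr at 32 to 172 and Cldn5 at 1 to 30. Whether these sums reflect endothelial cells was not tested.

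R-cadherin (Cdh4, chromosome 2), known from retina and brain, was at 24 and 23 in miniSOX, 15, 17, 17 (p21) and 61 (p31) in FNV, 14, 14, 80 (p21) and 130 (p31) in SOX2 and 7, 5 and 16 (p31) in NTC libraries in 2i. The second-wave FNV p31 and SOX2 p21 and p31 libraries were well above the rest. Cdh4 was higher in SOX2 than in NTC cells in 2i (1.78 ± 0.54, adjusted p = 0.0239), a call lost without NTC p31 (1.57, adjusted p = 0.102), NTC replicate 2 (1.75, adjusted p = 0.063) or SOX2 p31 (1.49, adjusted p = 0.0584). It passed in neither wave alone (1.11, adjusted p = 0.219, and 2.60, adjusted p = 0.105). In SL, Cdh4 was at 3 and 0 in FNV against 13 and 9 in NTC libraries, with 17 and 8 in miniSOX and 6 and 7 in SOX2 libraries. The FNV differences from NTC in SL (-2.56 ± 0.71, adjusted p = 0.0136) and of FNV in 2i from FNV in SL (2.71 ± 0.65, adjusted p = 0.00373) both ended without FNV replicate 2 in SL (-1.56, adjusted p = 0.169, and 1.71, adjusted p = 0.0867). Without replicate 1 they were -3.56 (adjusted p = 0.0048) and 3.71 (adjusted p = 0.00153), and the first was also lost without NTC replicate 1 in SL (-2.32, adjusted p = 0.0876). All 3 calls were lost in the averaged fit (adjusted p of 0.0776 to 0.175).

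LI-cadherin (Cdh17, chromosome 4), an intestinal cadherin that lacks the catenin-binding tail, was at 0, 7, 5 (p21) and 11 (p31) in FNV against 53, 39, 30 (p21) and 31 (p31) in SOX2 libraries in 2i. These groups did not overlap, while the miniSOX libraries, at 6 and 27, and the NTC libraries, at 13, 26 and 12 (p31), lay between or beside them. The FNV difference from SOX2 was -2.97 ± 0.79 (adjusted p = 0.0132), -2.14 (adjusted p = 0.0461) without FNV replicate 1, which was the 0, and -4.04 (adjusted p = 0.032) and -1.89 (adjusted p = 0.237) within the first and second waves. The type II cadherin Cdh20 (chromosome 1) was at 6 and 0 in miniSOX and 7, 5, 2 (p21) and 2 (p31) in FNV, against 18, 15, 32 (p21) and 29 (p31) in SOX2 libraries in 2i, with no overlap. It passed in FNV against SOX2 (-2.36 ± 0.70, adjusted p = 0.0223) and in miniSOX against SOX2 (-3.26 ± 0.91, adjusted p = 0.0256). The FNV call was lost without FNV p21 (-2.09, adjusted p = 0.053), FNV p31 (-2.09, adjusted p = 0.0628) or SOX2 p21 (-2.22, adjusted p = 0.0608), and it passed in neither wave alone (-1.33, adjusted p = 0.268, and -3.39, adjusted p = 0.13). The miniSOX call was lost without miniSOX replicate 2 (-1.86, adjusted p = 0.329), SOX2 p21 (-3.06, adjusted p = 0.0674) or SOX2 p31 (-3.13, adjusted p = 0.0658), and was -4.66 (adjusted p = 0.0167) without miniSOX replicate 1; within the second wave it was -3.57 (adjusted p = 0.0964). Both Cdh20 calls were lost in the averaged fit (adjusted p = 0.0838 and 0.082).

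K-cadherin (Cdh6, chromosome 15), known from kidney and neural crest, was above 0 in every SL library, at 63 and 81 in miniSOX, 30 and 44 in FNV, 26 and 46 in SOX2 and 51 and 46 in NTC cells. In 2i it was listed at 0 in 3 SOX2 libraries with 19 in p31, and at 0 in 2 NTC libraries with 30 in p31. The 2i libraries of these lines lay below their SL libraries. Over the 21 libraries Cdh6 was at 0 in 7 and otherwise at 14 or more. It falls outside the definition of a step gene, but whether its zeros come from the authors' estimation and normalisation was likewise not tested. It was at 32 and 0 in miniSOX and 16, 0, 14 (p21) and 35 (p31) in FNV libraries in 2i; FNV p31 overlapped the FNV libraries in SL, and neither line passed (adjusted p = 0.0924 and 0.075). It was called in 2i against SL in SOX2 (adjusted p = 0.00622) and NTC cells (adjusted p = 0.0239), calls lost without SOX2 replicate 2 in SL (adjusted p = 0.0505) and without either of the NTC libraries at 0 (adjusted p = 0.0818 and 0.0804) or either NTC library in SL (adjusted p = 0.117 and 0.0944); the NTC call held without NTC p31 (adjusted p = 0.0153). Both were lost in the averaged fit (adjusted p = 0.108 and 0.304). Cdh11, the cadherin of osteoblasts and mesenchyme, ranged from 0 to 39 and passed only in the test of any difference among the 8 groups (adjusted p = 0.0391). Cdh18, a type II cadherin of the nervous system, ranged from 18 to 65 and did not pass it.

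**Figure D2:**
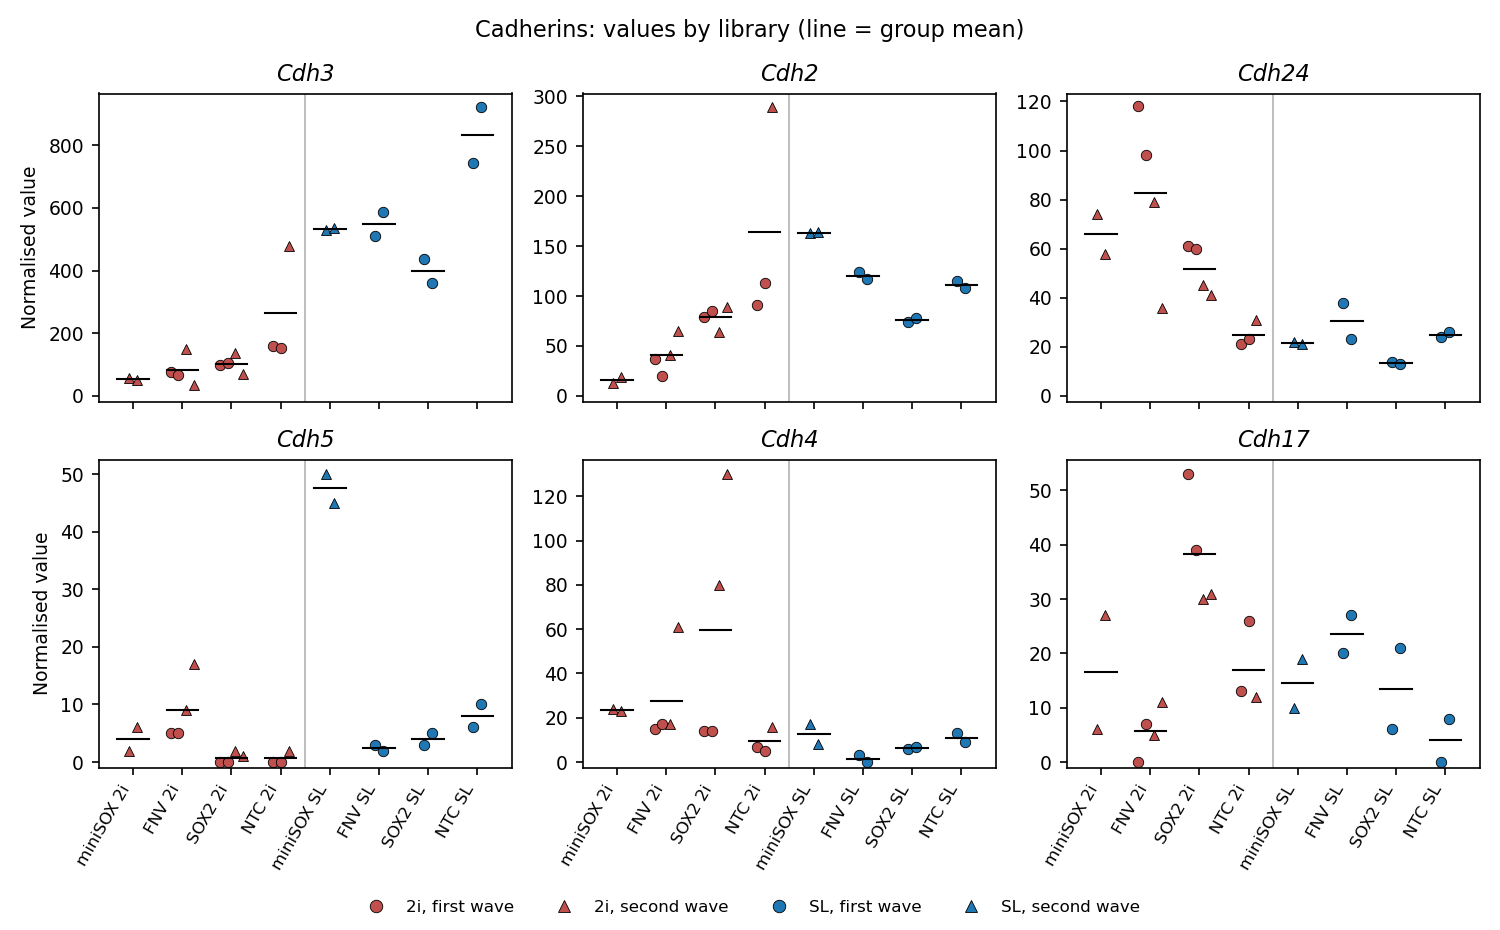
Normalised value of 6 cadherins in each library, by line and medium; circles are first-wave and triangles second-wave libraries, red is 2i and blue SL, and bars are group means. Cdh3 is lower in 2i than in SL in each line, Cdh2 in 2i is lowest in the miniSOX libraries at 13 and 19, and Cdh5 is highest in the miniSOX libraries in SL at 50 and 45.

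Of the non-clustered protocadherins, Pcdh1 (ENSMUSG00000051375, chromosome 18, 38185914 to 38212053, minus strand), an adhesion protein known from airway epithelium, differed most between media. It was low in 2i, at 2 and 3 in miniSOX, 8, 5, 13 (p21) and 10 (p31) in FNV, 10, 3, 7 (p21) and 12 (p31) in SOX2 and 4, 0 and 2 (p31) in NTC libraries. In SL it stood at 618 and 560 in miniSOX, 211 and 144 in FNV, 39 and 93 in SOX2 and 45 and 49 in NTC libraries. Every SL library exceeded every 2i library, and in SL the miniSOX libraries lay above those of FNV, which lay above those of SOX2 and NTC.

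In 2i against SL, the log2 change of Pcdh1 was -7.41 ± 0.64 in miniSOX (adjusted p = 7.86e-07), -4.51 ± 0.59 in FNV (adjusted p = 2.55e-05), -3.21 ± 0.59 in SOX2 (adjusted p = 0.000471) and -4.49 ± 0.60 in NTC cells (adjusted p = 9.17e-05). All 4 calls held on leaving out any 1 library. The NTC change was -5.23 (adjusted p = 2.44e-05) without replicate 1 and -3.83 (adjusted p = 0.00046) without replicate 2 in 2i, and the SOX2 change was -3.83 (adjusted p = 0.00116) without replicate 1 and -2.59 (adjusted p = 0.0138) without replicate 2 in SL. Within the first wave the changes were -4.58 in FNV (adjusted p = 0.00149), -3.21 in SOX2 (adjusted p = 0.00884) and -4.42 in NTC cells (adjusted p = 0.00283).

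Between lines in SL, Pcdh1 was higher in miniSOX than in SOX2 cells (2.64 ± 0.75, adjusted p = 0.0212) and in FNV than in NTC cells (1.87 ± 0.64, adjusted p = 0.0387). The first call was lost without either miniSOX library in SL (2.57, adjusted p = 0.082, and 2.71, adjusted p = 0.069) or without SOX2 replicate 1 in SL (2.03, adjusted p = 0.121), and was 3.26 (adjusted p = 0.0222) without SOX2 replicate 2. It was also 3.26 (adjusted p = 0.00441) with no wave term. The FNV call was lost without either library of either group in SL (1.60 to 2.14, adjusted p of 0.0812 to 0.183) without either miniSOX library in SL (adjusted p = 0.0519) and in the averaged fit (adjusted p = 0.0621). In 2i, at values of at most 13, Pcdh1 was also higher than in NTC in FNV (1.85 ± 0.49, adjusted p = 0.00771) and SOX2 cells (1.63 ± 0.49, adjusted p = 0.0224). Without NTC replicate 1 these were 2.46 (adjusted p = 0.000739) and 2.25 (adjusted p = 0.00293). The SOX2 call was lost without SOX2 replicate 1 (1.32, adjusted p = 0.0862), NTC replicate 2 (1.09, adjusted p = 0.115) or NTC p31 (1.53, adjusted p = 0.0781). Without NTC p31 the FNV change was 1.75 (adjusted p = 0.0363). Within the first wave FNV against NTC gave 1.72 (adjusted p = 0.116) and SOX2 against NTC gave 1.57 (adjusted p = 0.164). Within the second wave, against NTC p31 alone, they gave 2.05 and 1.77.

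Markers of other cells also differed between the SL groups. The fibroblast list (12 of 14 genes measured) summed to 2081 to 2318 in miniSOX, 1161 to 1214 in FNV, 483 to 569 in SOX2 and 773 to 783 in NTC cells in SL, against 216 to 624 over the 2i groups. Its genes did not order FNV and NTC cells in SL alike. Thy1 was at 530 and 523 in FNV against 4 and 5 in NTC libraries, and Col5a1, Pdgfrb, Dcn and Tagln were also higher in FNV. Col1a2, Pdgfra, Postn and Acta2 were lower in FNV than in NTC libraries, and Col1a1 and Col3a1 overlapped. Lum was at 0 in every SL group, and Dcn was at 0 in SOX2 and NTC cells in SL. The trophectoderm list (all 9 measured) summed to 16206 to 16299 in miniSOX, 2457 to 2473 in FNV, 1622 to 2310 in SOX2 and 9459 to 9479 in NTC cells in SL. Its highest genes in the miniSOX and NTC libraries in SL were Krt8 and Krt18. Krt8 was at 8269 and 8024 in miniSOX and 4732 and 5051 in NTC libraries. Krt18 was at 5475 in both miniSOX libraries and at 3404 and 3185 in NTC libraries. Cdx2 was at 0 to 2 in every SL library. The extraembryonic endoderm list without Sox17 (7 of 10 measured) summed to 2372 to 2461 in miniSOX, 1135 to 1268 in FNV, 1999 to 2024 in SOX2 and 1739 to 1777 in NTC cells in SL, with Ttr and Afp at 0 in FNV and NTC cells. Their part in the levels of Pcdh1, Cdh5 and the next gene was not tested.

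Pcdh12 (chromosome 18, 38267089 to 38284402, minus strand), a protocadherin of endothelium and placental trophoblast, was at 38 and 33 in miniSOX, 1 and 7 in FNV, 14 and 3 in SOX2 and 31 and 40 in NTC libraries in SL. In 2i it was at 1 and 0 in miniSOX, 1, 1, 6 (p21) and 2 (p31) in FNV and 0, 4 and 4 (p31) in NTC libraries, and was listed at 0 in all 4 SOX2 libraries. The media did not overlap in miniSOX, SOX2 and NTC cells and overlapped in FNV cells. It was lower in 2i in miniSOX (-4.69 ± 0.92, adjusted p = 0.00126) and NTC cells (-3.88 ± 0.86, adjusted p = 0.0046). Without NTC replicate 1 or 2 in 2i the NTC change was -3.10 (adjusted p = 0.027) or -4.49 (adjusted p = 0.00508), and it was -4.02 (adjusted p = 0.0181) within the first wave. The SOX2 call (adjusted p = 0.00538) was lost without replicate 1 in SL (adjusted p = 0.0937) and was at 0.0455 within the first wave. In SL it was lower in FNV than in NTC cells (-3.18 ± 0.92, adjusted p = 0.018), a call lost without FNV replicate 1 (-2.18, adjusted p = 0.167) or NTC replicate 1 (-3.36, adjusted p = 0.0669) or 2 (-3.00, adjusted p = 0.0937); it was -4.18 (adjusted p = 0.0158) without FNV replicate 2. In the averaged fit this call (adjusted p = 0.132) and the NTC call in 2i against SL (adjusted p = 0.0691) were lost.

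Pcdh19 (ENSMUSG00000051323, X chromosome, 133582860 to 133688987, minus strand), which acts with N-cadherin in neural cells, was lower in FNV and miniSOX than in SOX2 cells in 2i. It stood at 140 and 155 in miniSOX, 98, 126, 137 (p21) and 223 (p31) in FNV, 212, 222, 228 (p21) and 298 (p31) in SOX2 and 175, 191 and 433 (p31) in NTC libraries. In SL it stood at 82 and 72 in miniSOX, 148 and 122 in FNV, 112 and 61 in SOX2 and 242 and 269 in NTC libraries. FNV p31 overlapped the SOX2 libraries in 2i, and in SL both NTC libraries lay above all others.

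In 2i the change of Pcdh19 was -1.01 ± 0.28 in miniSOX (adjusted p = 0.0235) and -0.77 ± 0.21 in FNV (adjusted p = 0.0162) against SOX2, and -0.91 ± 0.23 in FNV against NTC cells (adjusted p = 0.00594). The miniSOX call was lost without either miniSOX library (-0.94, adjusted p = 0.153, and -1.09, adjusted p = 0.102) or SOX2 p31 (-1.01, adjusted p = 0.0518), and gave -0.82 (adjusted p = 0.126) within the second wave. FNV against SOX2 was lost without FNV replicate 1 (-0.70, adjusted p = 0.0549) or SOX2 replicate 1 (-0.70, adjusted p = 0.055) or 2 (-0.68, adjusted p = 0.0593), and FNV against NTC without NTC p31 (-0.62, adjusted p = 0.0727). Within the first and second waves FNV against SOX2 gave -0.96 (adjusted p = 0.0199) and -0.57 (adjusted p = 0.297). FNV against NTC gave -0.71 (adjusted p = 0.0523) in the first and -1.30 in the second, against NTC p31 alone. In the averaged fit the miniSOX (adjusted p = 0.086) and FNV (adjusted p = 0.113) calls against SOX2 were lost.

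In SL, SOX2 cells had less Pcdh19 than NTC cells (-1.61 ± 0.30, adjusted p = 0.00275), a call kept on leaving out any library and lost in the averaged fit (adjusted p = 0.139). FNV cells also had less (-0.92 ± 0.30, adjusted p = 0.0322), but that call was lost without any of the 4 libraries compared (-0.78 to -1.06, adjusted p of 0.0606 to 0.169). Pcdh19 was higher in 2i than in SL in SOX2 cells (1.19 ± 0.28, adjusted p = 0.00293; 1.38 within the first wave, adjusted p = 0.00206; but 0.75, adjusted p = 0.0731, without replicate 2 in SL) and in miniSOX cells (0.93 ± 0.30, adjusted p = 0.0275, lost without any of the 4 miniSOX libraries at 0.84 to 1.02). The change in FNV less that in SOX2 cells was -1.46 ± 0.37 (adjusted p = 0.0121), and -1.65 within the first wave (adjusted p = 0.00822). It was lost without SOX2 replicate 2 (-1.03, adjusted p = 0.084) or FNV replicate 1 in SL (-1.32, adjusted p = 0.0523). The averaged fit ended this call (adjusted p = 0.184), that in FNV against NTC in SL (adjusted p = 0.236) and that of medium in SOX2 cells (adjusted p = 0.0673). Pcdh9 and Pcdh18, both expressed in brain, ranged from 0 to 50 and from 0 to 41 and did not pass in the test over the 8 groups.

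The 13 clustered protocadherins measured lie on the plus strand of chromosome 18 between 37143503 and 37841873, and comprise Pcdhac2, 4 beta genes and 8 gamma genes. Each gamma member shares 31.5 to 47.1% of its exonic bases with other gamma genes in the GENCODE annotation, and Pcdhac2 shares 48.6% with other alpha genes, whereas the beta members share none. How the authors' counting divided reads over the shared exons cannot be read from the table, so the gamma members are not independent measurements and each is uncertain. Pcdhgc3 also overlaps the antisense gene BC037039 over 1559 exonic bases, and whether the counting used strand is not given here.

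The gamma genes were highest as a sum in NTC cells in 2i. The 8 members summed to 379 and 331 in miniSOX, 279, 230, 231 (p21) and 358 (p31) in FNV, 600, 544, 545 (p21) and 490 (p31) in SOX2 and 830, 747 and 796 (p31) in NTC libraries. Both miniSOX libraries and all FNV libraries lay below all SOX2 libraries, and these lay below all NTC libraries. Without Pcdhgc3 and Pcdhgc4, the sums in 2i were 127 and 118 in miniSOX, 57 to 197 in FNV and 124 to 171 in SOX2 libraries, which overlapped, against 193 to 245 in NTC libraries. In SL the sums of all 8 were 347 and 371 in miniSOX, 343 and 437 in FNV, 642 and 383 in SOX2 and 272 and 315 in NTC libraries, so NTC was the lowest there. Of the 8 members, 6 were called lower and 0 higher in FNV than in NTC cells in 2i (Pcdhgc4, Pcdhgc3, Pcdhga1, Pcdhga3, Pcdhga11 and Pcdhga12); 20% of all genes were called lower in that comparison. Pcdhga8 and Pcdhgb5, at 1 to 28 and 4 to 33, did not pass in the test over the 8 groups.

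Pcdhgc4 (ENSMUSG00000023036, 37815079 to 37841873), a C-type gamma isoform needed for neuron survival in mice, stood in 2i at 122 and 103 in miniSOX, 59, 42, 87 (p21) and 107 (p31) in FNV, 189, 196, 266 (p21) and 201 (p31) in SOX2 and 313, 298 and 345 (p31) in NTC libraries. The FNV and miniSOX libraries overlapped each other and lay below those of SOX2, which lay below those of NTC. In SL it stood at 156 and 189 in miniSOX, 131 and 231 in FNV, 358 and 131 in SOX2 and 73 and 92 in NTC libraries, with NTC lowest.

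In 2i the change of Pcdhgc4 was -1.59 ± 0.27 in FNV against SOX2 (adjusted p = 0.000635; -1.93 and -1.25 within the first and second waves, adjusted p = 0.00964 and 0.0286). It was -2.26 ± 0.30 in FNV against NTC (adjusted p = 2.97e-05). Within the first wave that change was -2.59 (adjusted p = 0.00159), and within the second, against NTC p31 alone, it was -1.83. Neither call was lost on leaving out any library, and that against NTC was -2.42 without NTC p31 (adjusted p = 0.000153). For miniSOX against SOX2 it was -1.15 ± 0.35 (adjusted p = 0.0403; -1.04 within the second wave, adjusted p = 0.043), a call lost in 9 of 21 fits that left out a library. Those were the fits without either miniSOX library in 2i (-1.27, adjusted p = 0.128, and -1.03, adjusted p = 0.228) or in SL (adjusted p = 0.0517 and 0.0518), SOX2 replicate 1, 2 or p21 (adjusted p = 0.0633, 0.0643 and 0.0885), FNV replicate 1 (adjusted p = 0.0534) or NTC replicate 2 (adjusted p = 0.0515) in 2i.

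Between media, Pcdhgc4 changed in opposite directions in FNV and NTC cells; the difference between those changes was not tested. In 2i against SL the change was -1.56 ± 0.35 in FNV (adjusted p = 0.00252; -1.16, adjusted p = 0.0541, without replicate 2 in SL; -1.78 within the first wave, adjusted p = 0.00937). It was 1.78 ± 0.36 in NTC cells (adjusted p = 0.00248; 1.89 within the first wave, adjusted p = 0.0102). In SL, SOX2 and FNV cells had more Pcdhgc4 than NTC cells (1.39 ± 0.39, adjusted p = 0.0254, and 1.08 ± 0.39, adjusted p = 0.0473). The SOX2 call was lost without SOX2 replicate 1 (0.67, adjusted p = 0.277) or NTC replicate 1 (1.23, adjusted p = 0.152) or 2 (1.56, adjusted p = 0.0664), and was 2.11 (adjusted p = 0.00273) without SOX2 replicate 2. The FNV call was lost in 14 of 21 fits that left out a library, with 0.67 (adjusted p = 0.338) without FNV replicate 2. Both SL calls were lost in the averaged fit (adjusted p = 0.131 and 0.114).

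Pcdhgc3 (ENSMUSG00000102918, 37806364 to 37841873), the most widely expressed gamma isoform, was higher in 2i than in SL in every line. It stood at 130 and 110 in 2i against 40 and 19 in SL in miniSOX cells, and at 133, 92, 87 (p21) and 54 (p31) against 40 and 43 in FNV cells. It stood at 287, 214, 121 (p21) and 118 (p31) in 2i against 37 and 45 in SL in SOX2 cells, and at 274, 256 and 206 (p31) against 65 and 69 in NTC cells. The media did not overlap within any line, and in SOX2 cells the second-wave 2i libraries lay below the first-wave ones.

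The change of Pcdhgc3 was 2.07 ± 0.31 in miniSOX (adjusted p = 0.000138), 1.42 ± 0.29 in FNV (adjusted p = 0.00103), 2.42 ± 0.29 in SOX2 (adjusted p = 1.15e-05) and 2.09 ± 0.29 in NTC cells (adjusted p = 0.000133), and all 4 calls held on leaving out any library. Within the first wave it was 1.39 in FNV (adjusted p = 0.000587), 2.57 in SOX2 (adjusted p = 1.67e-05) and 1.97 in NTC cells (adjusted p = 0.000158). In 2i it was lower in FNV than in SOX2 (-0.97 ± 0.22, adjusted p = 0.00473) and NTC cells (-1.35 ± 0.24, adjusted p = 0.000422), calls likewise kept. Within the first and second waves these were -1.16 (adjusted p = 0.00273) and -0.79 (adjusted p = 0.33) against SOX2, and -1.25 (adjusted p = 0.00127) and -1.57 (adjusted p = 0.0723) against NTC. The medium call in FNV cells (adjusted p = 0.0605) and the call of FNV against SOX2 (adjusted p = 0.0948) were lost in the averaged fit.

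Among the A-type gamma genes, Pcdhga1 stood at 37, 28, 26 (p21) and 48 (p31) in FNV and 36, 40, 41 (p21) and 44 (p31) in SOX2, against 78, 57 and 73 (p31) in NTC libraries in 2i, with no overlap between NTC and either line. Its changes against NTC were -1.03 ± 0.19 in FNV (adjusted p = 0.000529) and -0.78 ± 0.19 in SOX2 cells (adjusted p = 0.00632). Pcdhga3, at 8 to 16 in FNV and 8 to 16 in SOX2 against 22 to 28 in NTC libraries, changed by -1.37 ± 0.30 (adjusted p = 0.00219) and -1.20 ± 0.30 (adjusted p = 0.00857). These 4 calls held without NTC p31 and without any other library. Within the first and second waves SOX2 against NTC gave -0.80 (adjusted p = 0.0163) and -0.77 (adjusted p = 0.262) for Pcdhga1, and -1.18 (adjusted p = 0.0171) and -1.18 (adjusted p = 0.309) for Pcdhga3. Pcdhga12, at 13 to 51 in FNV against 39 to 71 in NTC libraries, changed by -1.32 ± 0.33 (adjusted p = 0.00529), and Pcdhga11, at 2 to 21 against 23 to 36, by -1.87 ± 0.47 (adjusted p = 0.00531). The groups overlapped for Pcdhga12 and not for Pcdhga11. Within the second wave none of these passed in FNV against NTC (-1.02, -1.18, -1.28 and -2.19 for Pcdhga1, Pcdhga3, Pcdhga12 and Pcdhga11, adjusted p of 0.113 to 0.255), while all passed within the first (adjusted p of 0.00183 to 0.0146). Of these 6 calls against NTC, that of Pcdhga1 in FNV cells was kept in the averaged fit, and the other 5 were lost (adjusted p of 0.0579 to 0.119).

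The A-type genes also passed in other comparisons, and most of those calls were lost on removing any of several libraries. Pcdhga11 was lower in FNV than in SOX2 cells in 2i, where SOX2 libraries ranged from 21 to 23 (-1.39 ± 0.43, adjusted p = 0.028), a call lost without FNV replicate 1 (-1.40, adjusted p = 0.0598) or SOX2 replicate 1 (-1.41, adjusted p = 0.0591), 2 (-1.37, adjusted p = 0.0671) or p21 (-1.36, adjusted p = 0.0611), and it was -0.80 (adjusted p = 0.0358) without FNV p21. Pcdhga12 was lower in miniSOX than in SOX2 cells in 2i (-1.31, adjusted p = 0.0364) and in SL (-1.81, adjusted p = 0.0195), with 83 and 64 in the SOX2 libraries in SL. The 2i call was lost without either miniSOX library (-1.59, adjusted p = 0.0832, and -1.04, adjusted p = 0.269) or SOX2 replicate 1, p21 or p31 (adjusted p of 0.0612 to 0.087), and it was -1.35 (adjusted p = 0.19) within the second wave. The SL call was lost without either miniSOX library (adjusted p = 0.0732 and 0.0625) or SOX2 replicate 1 (adjusted p = 0.0828). Its library values, 32 and 34 in miniSOX against 83 and 64 in SOX2, differ by less: with no wave term, which in SL rests on the 2i libraries, the change was -1.12 (adjusted p = 0.163). Pcdhga1 in miniSOX against SOX2 cells in SL (-0.87, adjusted p = 0.0424) was lost in 17 of 21 such fits and with no wave term (-0.73, adjusted p = 0.0626). In 2i against SL, Pcdhga1 (-0.96 ± 0.22, adjusted p = 0.00296) and Pcdhga12 (-1.40 ± 0.39, adjusted p = 0.01) were lower in SOX2 cells, the second not without SOX2 replicate 1 in SL (-1.21, adjusted p = 0.0828). Pcdhga11 and Pcdhga12 were lower in 2i in FNV cells (-1.82, adjusted p = 0.0169, and -1.12, adjusted p = 0.034), and Pcdhga3 higher in NTC cells (1.19, adjusted p = 0.0286). The Pcdhga11 call was lost without FNV replicate 1 in SL (-1.56, adjusted p = 0.12). The Pcdhga12 call was lost without FNV replicate 1 in 2i (-0.91, adjusted p = 0.118) or either FNV library in SL (-1.21, adjusted p = 0.0919, and -1.03, adjusted p = 0.151). The Pcdhga3 call was lost without NTC replicate 1 (1.26, adjusted p = 0.0579) or 2 (1.06, adjusted p = 0.103) in 2i or either NTC library in SL (adjusted p = 0.124 and 0.11). None of the calls in this paragraph was kept in the averaged fit (adjusted p of 0.0836 to 0.335).

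Pcdhac2, the C-type alpha isoform of serotonergic neurons, was listed at 0 in all 4 FNV libraries in 2i, against 31, 37, 6 (p21) and 10 (p31) in SOX2 libraries. These did not overlap (adjusted p = 0.00357; 0.0198 and 0.118 within the first and second waves), and no fold is given against zeros. It was at 2 and 3 in miniSOX and 4, 0 and 6 (p31) in NTC libraries in 2i, and at 0 to 17 in SL. The beta gene Pcdhb17 was above 0 in 4 of 21 libraries, at 14 to 27, and did not pass in the test over the 8 groups.

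**Figure D3:**
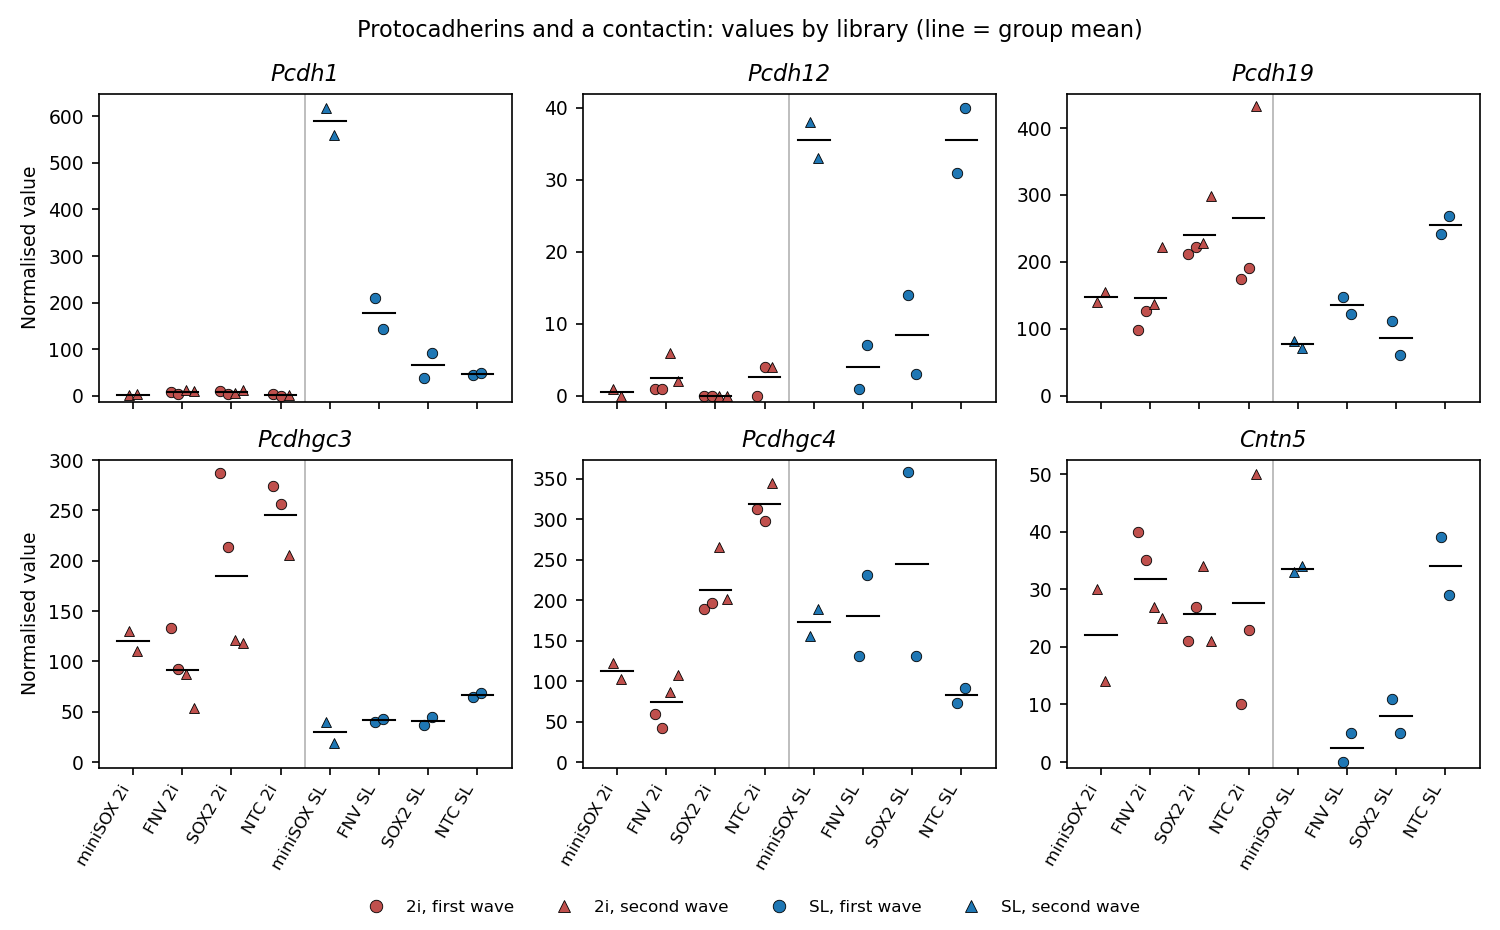
Normalised value of 5 protocadherins and Cntn5 in each library, by line and medium, with symbols and colours for wave and medium as in the legend and bars at group means. Pcdh1 reaches 618 in miniSOX cells in SL and at most 13 in 2i, Pcdhgc3 is higher in 2i in each line, and Pcdhgc4 in 2i is at 42 to 107 in FNV and 189 to 266 in SOX2 libraries, against 298 to 345 in NTC libraries.

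Of the 5 contactins, Cntn1, which is needed at the paranodes of myelinated axons, ranged from 42 to 93 over the 21 libraries and did not pass in the test over the 8 groups (adjusted p = 0.74). Cntn5, expressed in the auditory and visual systems, was at 0 and 5 in FNV libraries in SL, against 39 and 29 in NTC libraries in SL and 40, 35, 27 (p21) and 25 (p31) in FNV libraries in 2i. It stood at 33 and 34 in miniSOX and 11 and 5 in SOX2 libraries in SL, so the FNV libraries were low there together with SOX2 replicate 2. The change was -3.82 ± 0.74 in FNV against NTC in SL (adjusted p = 0.00138) and 3.58 ± 0.68 in FNV in 2i against SL (adjusted p = 0.000653; 3.97 within the first wave, adjusted p = 0.00312). Without FNV replicate 1 in SL, the library at 0, these were -2.53 (adjusted p = 0.0206) and 2.28 (adjusted p = 0.0184), and without replicate 2 they were -5.11 (adjusted p = 0.000287) and 4.87 (adjusted p = 0.000115).

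Cntn2 (TAG-1), a guidance protein of early axons, was at 57 and 44 in the first-wave SOX2 libraries in 2i and at 14 (p21) and 10 (p31) in the second-wave ones, against 8 and 4 in SOX2 libraries in SL. The first-wave pair stood apart from every other library of the series, whose highest value was 29. The change in 2i against SL was 2.41 ± 0.49 in SOX2 cells (adjusted p = 0.00102), and 2.93 within the first wave (adjusted p = 0.000146). In FNV cells less that in SOX2 cells it was -2.79 ± 0.65 (adjusted p = 0.00755), and -3.90 within the first wave (adjusted p = 0.000481). In SL, FNV at 22 and 21 and miniSOX at 14 and 11 exceeded SOX2 (1.75 ± 0.53, adjusted p = 0.0297, and 1.95 ± 0.62, adjusted p = 0.0369). The FNV call was lost without either FNV library (1.71, adjusted p = 0.103, and 1.78, adjusted p = 0.11) or SOX2 replicate 2 (1.32, adjusted p = 0.199) in SL, and the miniSOX call in 8 of 21 fits that left out a library (1.52, adjusted p = 0.178, without SOX2 replicate 2 in SL). With no wave term the miniSOX change was 1.0 (adjusted p = 0.352), so its size rests on a wave term taken from the 2i libraries. In the averaged fit these 2 calls (adjusted p = 0.316 and 0.198), that of medium in SOX2 cells (adjusted p = 0.0564) and that of the difference between FNV and SOX2 cells (adjusted p = 0.219) were lost.

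The step genes alternated between 0 and values of 30 or more. Cdh19, a cadherin of Schwann cell precursors, was at 230 and 224 in miniSOX in 2i, 308 and 256 in miniSOX in SL and 226 and 194 in FNV libraries in SL, and at 0 in the other 15 libraries. Cntn3 was at 0 in both SOX2 libraries in SL and at 188 to 411 in the other 19 libraries. Cdh10 was at 0 in replicate 1 of FNV and of SOX2 in 2i and at 175 to 579 in the other 19 libraries, including the second replicates of the same groups, so its zeros split replicates. Pcdhb14 split replicates as well, at 0, 235, 162 (p21) and 0 (p31) in FNV and 0, 0, 153 (p21) and 241 (p31) in SOX2 libraries in 2i. Pcdhb19 was above 0 in 3 libraries, at 33 and 35 in miniSOX and 40 in 1 FNV library in SL. The remaining 7 (Cdh7, Cdh8, Cdh9, Cdh12, Pcdh17, Pcdhb16 and Cntn4) ranged up to 173, the highest being Cdh9 in miniSOX cells in SL. Cdh9 was at 93 to 173 in the miniSOX, FNV and SOX2 libraries in SL and at 38 and 35 in those of NTC, and Cdh7 was at 47 to 100 in those of miniSOX, FNV and SOX2 and at 0 and 67 in those of NTC.

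The share of members called in each comparison was near or under the share of all genes called, so no count below sets the members apart. In 2i against SL, 10 of 40 members were called in miniSOX (25.0%, against 33.4% of all genes), 13 in FNV (32.5%, against 40.6%), 14 in SOX2 (35.0%, against 44.9%) and 8 in NTC cells (20%, against 24.6%). In miniSOX cells 3 were higher and 7 lower in 2i (against 17.0% and 16.4% of all genes), in FNV cells 4 and 9 (against 20.3% and 20.4%), in SOX2 cells 5 and 9 (against 22.3% and 22.5%) and in NTC cells 3 and 5 (against 11.9% and 12.8%). Step genes made up 2, 3, 3 and 0 of them. The calls common to all 4 lines were Cdh3 and Pcdh1, lower, and Pcdhgc3, higher. The median change over the 28 members that are not step genes was -0.22 in miniSOX, -0.70 in FNV, -0.26 in SOX2 and 0.27 in NTC cells, against -0.02, 0.03, 0.00 and 0.00 over all genes; member medians include fitted values against groups listed at 0.

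**Figure D4:**
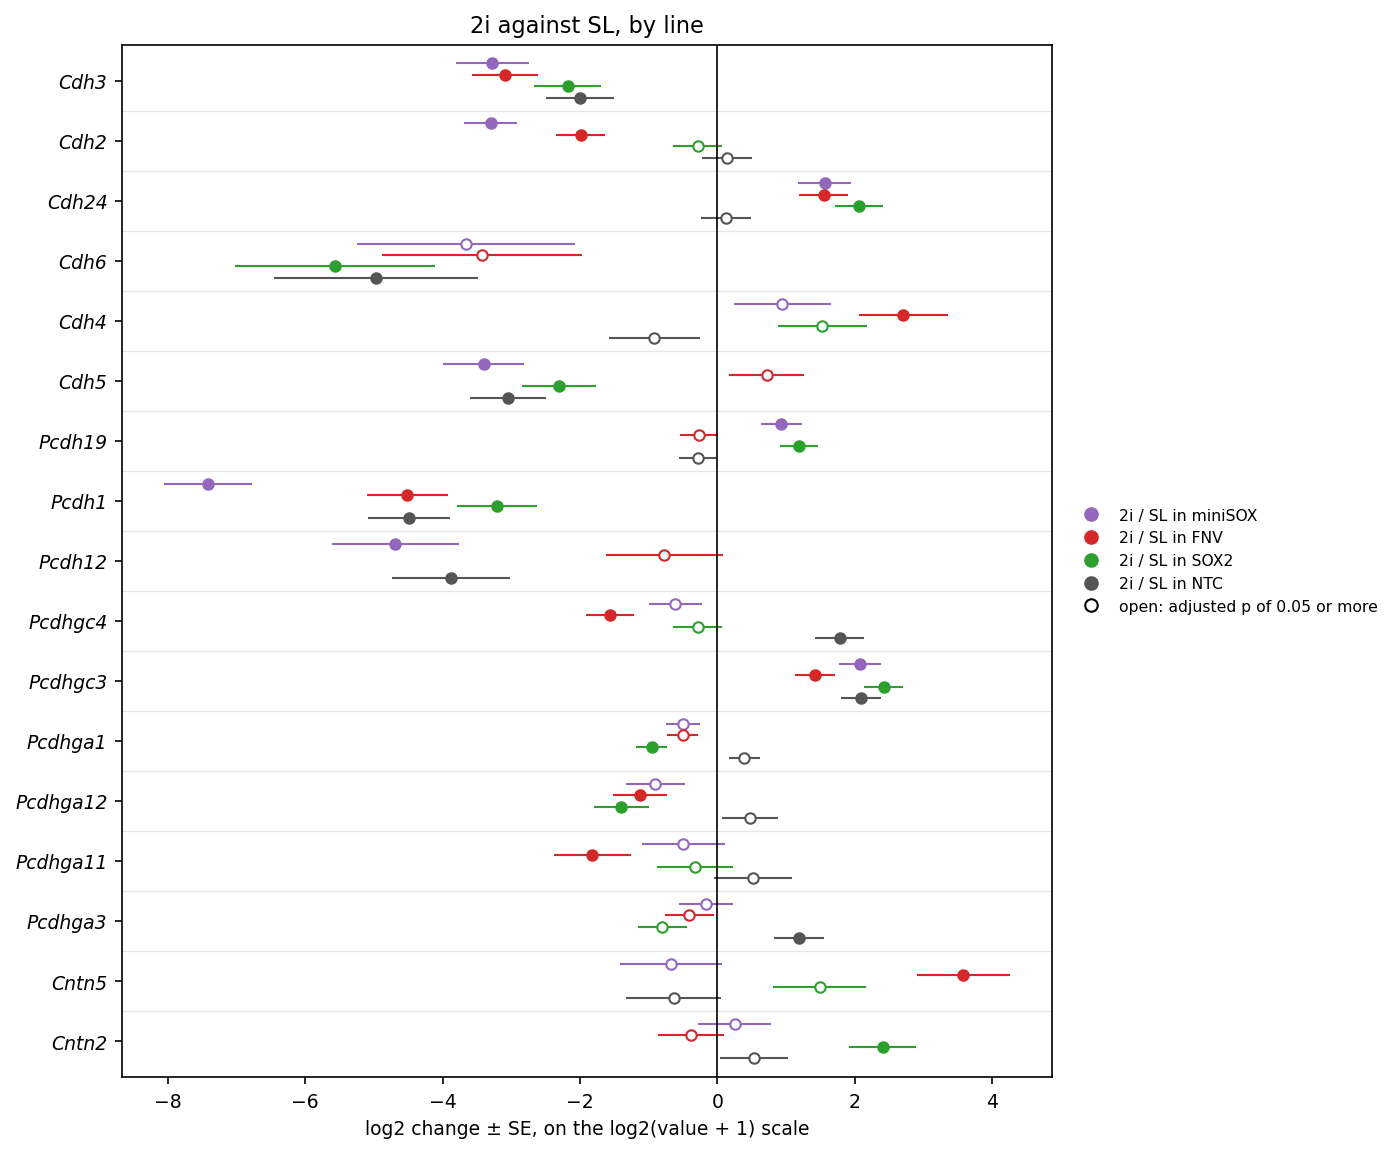
Log2 change ± SE in 2i against SL, by line, of members other than step genes that were called in at least 1 line; filled points have an adjusted p under 0.05, and points against a group listed wholly at 0 are left out. Pcdh1 and Cdh3 are lower and Pcdhgc3 is higher in 2i in all 4 lines, and Cdh2 is lower in miniSOX and FNV cells.

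In the line comparisons in 2i, 6 members were called in miniSOX against SOX2 (15.0%, against 14.9% of all genes), 1 higher and 5 lower (against 7.32% and 7.57% of all genes). In FNV against SOX2, 9 were called (22.5%, against 25.2%), 1 higher and 8 lower (against 12.4% and 12.9%). In FNV against NTC, 12 were called (30.0%, against 39.7%), 3 higher and 9 lower (against 19.7% and 20%). In SOX2 against NTC, 7 were called (17.5%, against 28.7%), 3 higher and 4 lower (against 14.4% and 14.3%). The comparisons with SOX2 share the SOX2 libraries, and those with NTC share the NTC libraries. The median change over the 28 members that are not step genes was -0.42 in miniSOX against SOX2, -0.57 in FNV against SOX2, -1.09 in FNV against NTC and -0.32 in SOX2 against NTC, against -0.01, -0.01, -0.01 and 0.02 over all genes. Without NTC p31, 11 members were called in FNV against NTC and 5 in SOX2 against NTC.

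**Figure D5:**
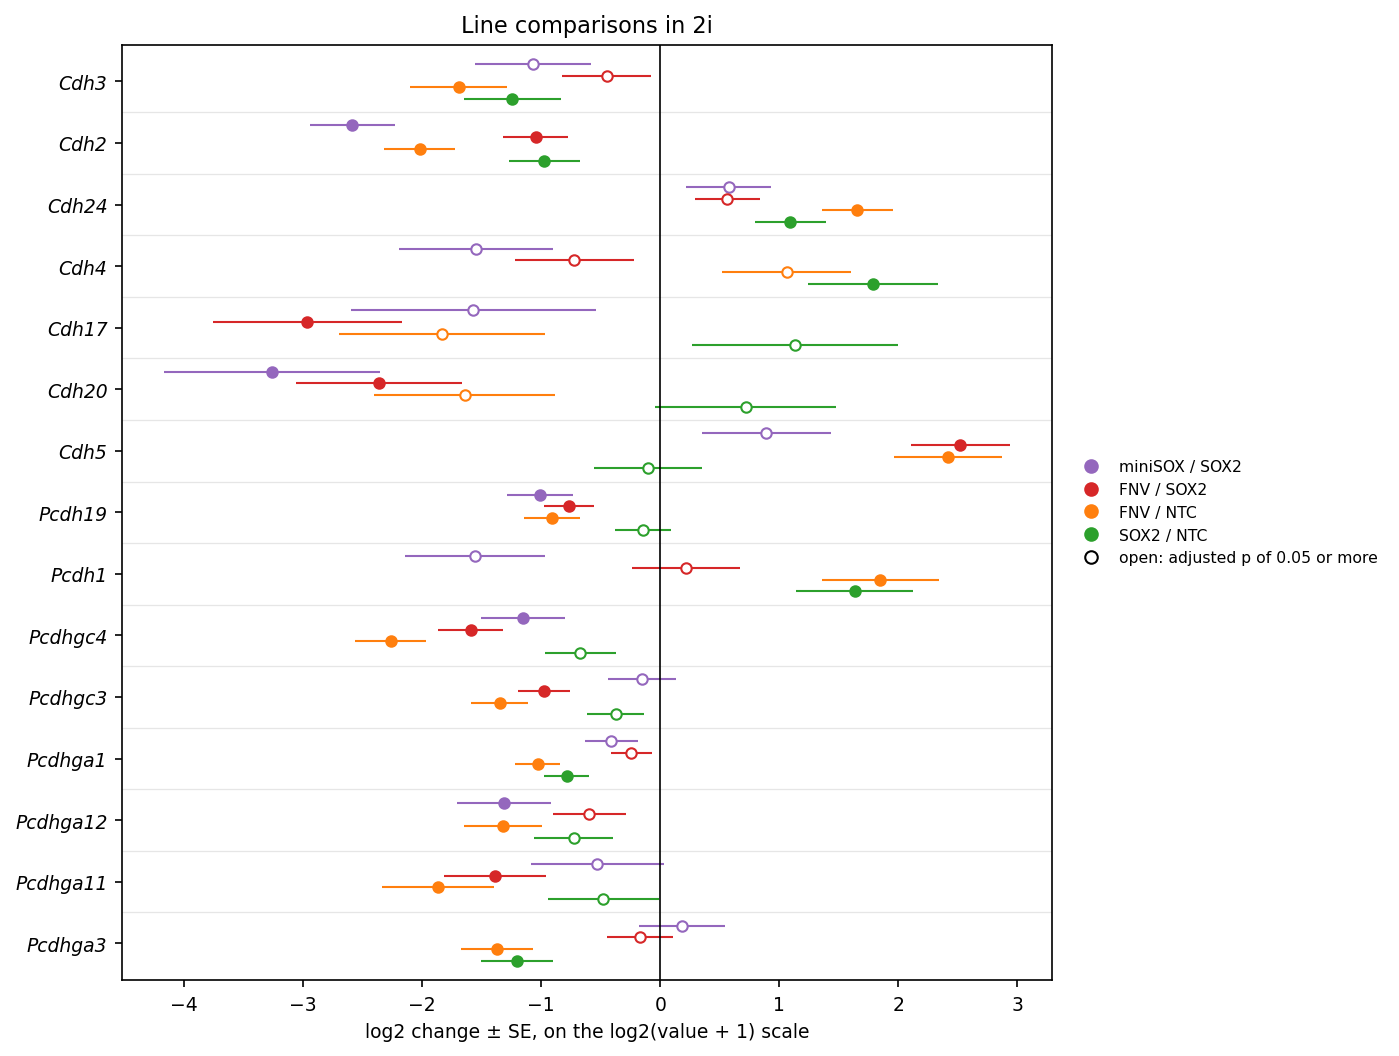
Log2 change ± SE between lines in 2i of members other than step genes that were called in at least 1 of the 4 comparisons; filled points have an adjusted p under 0.05, and points against a group listed wholly at 0 are left out. Cdh2 is lower in each comparison, at -2.59 in miniSOX against SOX2 and -2.02 in FNV against NTC, while Cdh24 is higher against NTC.

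In SL, 7 members were called in miniSOX against SOX2 (17.5%, against 21.6% of all genes), 5 higher and 2 lower (against 10.4% and 11.2% of all genes). In FNV against SOX2, 4 were called (10%, against 21.4%), 3 higher and 1 lower (against 10.2% and 11.2%). In FNV against NTC, 7 were called (17.5%, against 30.0%), 3 higher and 4 lower (against 14.2% and 15.8%). In SOX2 against NTC, 3 were called (7.5%, against 15.0%), 1 higher and 2 lower (against 7.35% and 7.63%). Step genes made up 3, 3, 1 and 1 of these. The FNV-to-SOX2 difference in 2i less that in SL was called for 7 members (17.5%, against 20.8% of all genes), 1 above 0 and 6 below (against 10.7% and 10.1%): Cdh2, Cdh5, Cntn2, Pcdh19, Pcdhac2 and the step genes Cdh19 and Cntn3. With no wave term the calls of Cdh2 (adjusted p = 0.0725), Cdh5 (adjusted p = 0.0564) Pcdh19 (adjusted p = 0.0717) and Pcdhac2 (adjusted p = 0.0649) were lost. Calls named above that were also lost without the wave term were in SOX2 against NTC in 2i (Cdh2, Cdh3 and Cdh4, adjusted p of 0.0641 to 0.118), in FNV against NTC and SOX2 in 2i (Pcdh19, adjusted p = 0.0619 and 0.0832) and in miniSOX against SOX2 in 2i (Pcdhga12, Pcdhgc4 and Pcdh19, adjusted p of 0.16 to 0.255). In SL they were lost for Pcdhgc4 in SOX2 against NTC (adjusted p = 0.0674), for Cdh4, Pcdhgc4, Pcdh1 and Pcdh19 in FNV against NTC (adjusted p of 0.0661 to 0.129) and for Cntn2 in FNV against SOX2 (adjusted p = 0.0982). Between media they were lost for Cdh5, Cdh6 and Pcdhga12 in SOX2 (adjusted p of 0.0777 to 0.0857), Pcdhga12 in FNV (adjusted p = 0.2), Cdh6 in NTC (adjusted p = 0.159) and Pcdh19 in miniSOX cells (adjusted p = 0.113). Any difference among the 8 groups was called for 25 members (62.5%, against 73.5%), of which 4 were step genes.

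Genes that act with these proteins were examined in FNV against SOX2 cells in 2i. Of 14 measured catenins and plaque proteins, 2 rose and 3 fell, with a median change of -0.09. Pkp2, a desmosomal plaque protein, was at 973, 940, 817 (p21) and 539 (p31) in FNV against 311, 303, 203 (p21) and 287 (p31) in SOX2 libraries (1.55 ± 0.12, adjusted p = 5.57e-07). Ctnnd2, the delta-catenin of neurons, was at 10, 12, 21 (p21) and 42 (p31) in FNV against 87, 81, 113 (p21) and 135 (p31) in SOX2 libraries (-2.42 ± 0.25, adjusted p = 7.30e-06). Neither overlapped. Nectin3, a nectin that works beside cadherins at adherens junctions, was also lower (-0.90 ± 0.09, adjusted p = 5.63e-06). Leaving out each library in turn, 1 to 3 rose and 2 to 3 fell; 1 rose with no wave term or in the averaged fit, and 5 within the first wave.

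Of 13 other cadherin superfamily genes measured, 6 rose and 3 fell, the calsyntenin Clstn3 (2.06 ± 0.33, adjusted p = 0.000335) and the planar polarity cadherin Celsr3 (1.47 ± 0.29, adjusted p = 0.00197) among those higher and Clstn1 (-0.43 ± 0.06, adjusted p = 0.000117) among those lower. With no wave term 2 rose, with only the groups compared 3, in the averaged fit 2 and within the second wave 1; 1 fell in the averaged fit and 0 within the second wave. Of 15 contactin partners and related immunoglobulin adhesion proteins, 2 rose and 4 fell; 1 rose with no wave term or in the averaged fit, and within the second wave 0 rose and 1 fell. Ncam1, a neural cell adhesion molecule, was at 32, 37, 36 (p21) and 48 (p31) in FNV against 476, 454, 127 (p21) and 123 (p31) in SOX2 libraries (-2.64 ± 0.36, adjusted p = 9.70e-05). Aplp1, an amyloid precursor-like protein, was at 18, 14, 37 (p21) and 32 (p31) in FNV against 531, 589, 192 (p21) and 90 (p31) in SOX2 libraries (-3.48 ± 0.56, adjusted p = 0.000436). For both, the SOX2 libraries lay above all FNV libraries, the first-wave ones highest. Cntnap2, a partner of Cntn2 at juxtaparanodes, was lower by a smaller amount (-0.74 ± 0.13, adjusted p = 0.000728).

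Of 14 regulators of clustered protocadherin choice or silencing, 3 rose and 0 fell by limma, with 11 not called. Dnmt3b, a DNA methyltransferase that marks their promoters, was at 1931, 1834, 1483 (p21) and 2092 (p31) in FNV against 681, 617, 1341 (p21) and 1563 (p31) in SOX2 libraries, which overlapped (0.91 ± 0.22, adjusted p = 0.00661; 0.0545 with no wave term). The cohesin subunit Rad21 (0.35 ± 0.09, adjusted p = 0.013) and Smchd1, a chromatin silencing protein (0.19 ± 0.05, adjusted p = 0.0187) rose by less, calls lost without SOX2 replicate 1 (0.31, adjusted p = 0.0505) and without SOX2 p21 (0.17, adjusted p = 0.0571). Of 6 transcription factors of the epithelial to mesenchymal transition, 0 rose and 2 fell, Tcf4 (-0.92 ± 0.13, adjusted p = 0.000166) and Zeb1 (-0.45 ± 0.12, adjusted p = 0.00984). Without FNV p21, 7 regulators rose and 1 fell, and 1 transcription factor rose. With no wave term or in the averaged fit, 1 regulator rose and 1 transcription factor fell (with no wave term Smchd1 was at an adjusted p of 0.182 and Zeb1 at 0.132), and within the first and second waves 6 and 0 regulators rose. Over all genes, 12.4% rose and 12.9% fell in this comparison.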

How the data were processed

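RNA was measured in 21 libraries; per the labels' protocols it was Trizol RNA, oligo(dT)-selected and primed with random hexamers. The submitters' processing notes name RSEM, Bowtie2 2.0 and mm10, with no role stated. The deposited table holds a score per gene and library: whole numbers already normalised between libraries by the authors, whose totals run between 14044316 and 14047262. The median of the library medians was 214. Depth is therefore unknown and counting intervals are left out. Whether the counting used strand is not given here. Genes were placed with GENCODE M21 (GRCm38), in which all 40 symbols matched.

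Differences were tested with limma 3.58.1 in R 4.3.3 (trend and robust) on log2(value + 1), with the 8 groups and wave as terms, 12 residual degrees of freedom and Benjamini-Hochberg adjustment over 16443 genes; a call is an adjusted p under 0.05. The fit was tested on simulated data. The members and lists were chosen with earlier results of these data known. Named were up to 6 called members per direction and comparison with a group mean of at least 20, every step gene, the highest member of each family and up to 3 genes of each related list by adjusted p; other members are named to account for all 40. Alternatives were other pseudocounts, filters, scaling, fits without the wave term, within a wave, with a replicate block, of the compared groups alone, and without each library in turn. Fits restricted to the second wave and with first-wave replicates averaged were added after the data were seen. No sequences are printed.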

Additional observations from a re-analysis of the deposited data

Results flagged for a closer look

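The FNV and SOX2 groups in 2i, each of 4 libraries, were searched for far values in 20 members. This gave 38 sets of a member and a group, and in 4 of them a library lay far from the other 3. The rate of about 1 in 20 sets by chance assumes independent, normally distributed values. These sets share the same libraries and include tied values, so that rate may not apply. Cdh4 was at 61 in FNV p31 in 2i, against 15, 17 and 17 in the other FNV libraries. Cdh6 was at 19 in SOX2 p31 in 2i and at 0 in the other SOX2 libraries. Pcdhga3 was at 16 in FNV p31 in 2i, against 8 in each of the other FNV libraries. Pcdhgc4 was at 266 in SOX2 p21 in 2i, against 189, 196 and 201 in the other SOX2 libraries. All 4 were second-wave libraries.

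The difference between FNV and SOX2 cells in 2i differed from that in SL for 7 members by limma's test of the difference itself: Cdh2 (adjusted p = 0.02), Cdh5 (adjusted p = 0.00868), Cntn2 (adjusted p = 0.00755), Pcdh19 (adjusted p = 0.0121), Pcdhac2 (adjusted p = 0.0492) and the step genes Cdh19 (adjusted p = 1.27e-06) and Cntn3 (adjusted p = 8.67e-10). The Pcdhac2 call, with FNV cells in 2i listed at 0, was lost in 17 of 21 fits that left out a library, with an adjusted p of 0.275 without SOX2 replicate 2 in SL and of 0.00936 without SOX2 replicate 1 in SL. Cdh19 was at 0 in both 2i groups and in SOX2 cells in SL, and Cntn3 was at 0 in SOX2 cells in SL alone.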

How the results depend on the processing

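The 121 results followed were those of called members and of the genes picked from the related lists, which are not members. Of their 3833 alternative values, 3386 kept direction and call, 447 kept direction and lost the call, and 0 reversed. Of 154 alternative counts of called members (library removals aside), 117 stayed within 1.5 times. With genes of mean at least 50, which tests 12 members, the counts were 3 (SOX2 against NTC), 6 (FNV against NTC) and 4 (FNV against SOX2) in 2i, 3 (FNV against NTC), 2 (FNV against SOX2) and 3 (miniSOX against SOX2) in SL, 5, 6, 5 and 4 for medium in miniSOX, FNV, SOX2 and NTC, 4 for the medium difference of FNV against SOX2 and 8 for any difference; fewer members were tested. With no wave term they were 4 (SOX2 against NTC) and 3 (miniSOX against SOX2) in 2i, 3 (FNV against NTC) and 2 (FNV against SOX2) in SL, and 3 for the medium difference. With second-wave libraries only they were 3, 5 and 2 (SOX2 against NTC, FNV against NTC and FNV against SOX2 in 2i), and with first-wave libraries only 11 and 9 (SOX2 against NTC and FNV against SOX2 in SL). With first-wave replicates averaged, which leaves fewer samples, they were 2 (SOX2 against NTC) and 4 (FNV against SOX2) in 2i, 1, 2, 2 and 3 (SOX2 against NTC, FNV against NTC, FNV against SOX2 and miniSOX against SOX2) in SL, 7, 6 and 3 for medium in FNV, SOX2 and NTC, 2 for the medium difference and 15 for any difference. For SOX2 against NTC in SL, pseudocount 10 gave 7 and the compared groups alone 5; the compared groups alone gave 12 for miniSOX against SOX2 in SL; without step genes FNV against SOX2 in SL gave 1. Except where the settings' construction shows it, the cause was not tested. Leaving out each library gave 4 to 9 (SOX2 against NTC), 11 to 15 (FNV against NTC), 7 to 13 (FNV against SOX2) and 2 to 7 (miniSOX against SOX2) in 2i, 2 to 4, 2 to 7, 2 to 6 and 2 to 7 in the same order in SL, 8 to 12, 8 to 16, 11 to 15 and 6 to 9 for medium in miniSOX, FNV, SOX2 and NTC, 4 to 9 for the medium difference and 20 to 29 for any difference. Over all genes, 4718 were called in SOX2 against NTC in 2i, 2947 with no wave term and 1700 with replicates averaged, and 4150 in FNV against SOX2 in 2i, 2695 and 1542 in those fits. With a replicate block, 5 members were called in miniSOX against SOX2 in 2i and 13 in FNV against NTC in 2i; same-numbered libraries did not deviate together (correlations of -0.0665 to 0.0858 over 15 pairs of groups), so numbers alone are shared. Depth is unknown, so what it limits cannot be given.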
